A study of Mus musculus with 23 samples.

Results

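Lysozymes and CC chemokines are best known as products of macrophages and other cells that are not pluripotent, and their probes gave signal on arrays of embryonic stem cells (ESCs) grown in serum. The genes described here are Lyz1 and Lyz2, the mouse lysozyme genes, and Ccl4 and Ccl7, which encode secreted chemokines. They are 4 of the 11494 genes with a named probe, and 6 of the 45281 probes of the array measured them (1 each for Lyz1 and Ccl4, and 2 each for Lyz2 and Ccl7). They were chosen by measured values, namely a signal in serum ESCs that was missing in 2i/LIF and that for the lysozymes and Ccl4 was lower in reverted ESCs (rESCs). The contrasts of serum ESCs with 2i/LIF and with rESCs are therefore given as descriptions without a test. Bgn, Mgp and Tnc, which encode the matrix proteins biglycan, matrix Gla protein and tenascin C, were measured beside them on 7 probes as genes of fibroblasts.

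Lysozyme cuts the peptidoglycan of bacterial cell walls. In the mouse, Lyz2 is the form of macrophages and neutrophils and Lyz1 that of Paneth cells of the gut, and Lyz2 is widely used to drive Cre in myeloid cells. Ccl4, also called MIP-1 beta, is released by activated macrophages and lymphocytes. Ccl7, also called MCP-3, draws monocytes through Ccr2 and is made by fibroblasts as well as by macrophages. None of the 4 belongs to the circuit of transcription factors that defines pluripotency.

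The study asked whether Blimp1, a transcriptional repressor needed by early germ cells, is needed for deriving pluripotent cells and for moving between their states. All pluripotent lines carried the Blimp1 mutation, either as Blimp1 +/- or as Blimp1 -/-, on a mixed C57Bl6/CBA/129 background, and no wild-type pluripotent line was among the samples used here. ESCs were represented by 3 heterozygous lines (PAN1, PUM3 and CHE4) and 3 null lines (JAG1, JAG2 and B12). Each ESC line was arrayed once in ESC medium and once in 2i/LIF, which is the serum-free medium N2B27 with the MEK inhibitor PD0325901, the GSK3 inhibitor CHIR99021 and LIF. Standard ESC medium held fetal calf serum and LIF by the study's methods, whereas the sources used here do not give whether the arrayed ESCs lay on feeders. Epiblast stem cells (epiSCs), which are derived in culture from the post-implantation epiblast, were 3 heterozygous lines (BL3, BL4 and BL7) and 2 null lines (BL2 and BL6). They were grown with activin A and bFGF on mouse embryonic fibroblasts (MEFs). The rESCs, which were epiSCs turned back towards the ESC state in LIF and serum on feeders, were 2 heterozygous lines (BL3 and BL7) and 3 null lines (J2.3, BL2 and BL6). A single array of wild-type MEFs served as the fibroblast sample, from the MF1 strain by the methods.

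Depth was even across the 23 arrays, which had 12197 to 14599 detected probes each and a mean negative-control signal of 65.6 to 101. A probe is called detected where its detection p was under 0.01. The labels held for most arrays: Pou5f1, the Oct4 gene, lay at 1153 to 4995 on the pluripotent arrays and was not detected in MEFs (92.2), and Esrrb, a gene of the naive state, lay at 2441 to 5634 in ESCs of both media. The BL6 epiSC array stood apart with Esrrb at 1520 against 93.3 to 271 in the other epiSCs, and the J2.3 rESC array with Esrrb at 1849 against 5390 to 6336 in the other rESCs. Results that rest on these 2 arrays are given with and without them.

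Lyz1 and Lyz2 are neighbours on chromosome 10 in the RefSeq annotation of GRCm38.p6 and arose from one gene by duplication. The 250 bases before each start site are shown because the genes moved together on these arrays, and because they show how alike the promoters are. Both are read on the minus strand, 5′ to 3′, at chr10:117292869-117293118 for Lyz1 and chr10:117282273-117282522 for Lyz2, with the longest run that both share, 50 bases, in capitals.
Lyz1: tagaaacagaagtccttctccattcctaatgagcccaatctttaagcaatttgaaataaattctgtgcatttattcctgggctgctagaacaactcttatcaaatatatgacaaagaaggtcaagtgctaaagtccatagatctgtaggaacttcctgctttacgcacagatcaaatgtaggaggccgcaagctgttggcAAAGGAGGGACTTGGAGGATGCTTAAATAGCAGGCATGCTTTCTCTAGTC
Lyz2: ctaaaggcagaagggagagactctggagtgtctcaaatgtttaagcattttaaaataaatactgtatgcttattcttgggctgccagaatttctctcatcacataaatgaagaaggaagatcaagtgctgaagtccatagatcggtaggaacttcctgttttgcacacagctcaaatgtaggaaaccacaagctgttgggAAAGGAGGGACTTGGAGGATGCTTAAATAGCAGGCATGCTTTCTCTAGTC
The shared run ended at the base before the start site, and 200 of 252 aligned columns were identical (79.4%). Short motifs were searched on both strands, and positions are those of the base farthest from the start. AGGAAGT, the sequence bound by PU.1 and other ETS factors, lay 100 bases before the start in both genes, on the strand opposite to the one shown. That motif was present in 7.69% of 32851 promoters of the same length. It overlapped GGAANTTCC, which began 103 bases before the start in both and was present in 0.813% of promoters. TTGCNNAA, the core of sites of C/EBP factors, present in 9.56% of promoters, was found 209 bases before the start of Lyz1, also on the opposite strand, and not in Lyz2. TATAAA, the TATA box (12.4% of promoters), the NF-kappa-B motif (0.356%) and TGANTCA, the AP-1 motif (6.75%) were found in neither window. A match describes letters and no binding. The table of promoters gave 2 of the 4 genes.

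Lyz1 (probe ILMN_2878071) was bright in every serum ESC line. Its signal was 743 in PAN1, 778 in PUM3, 996 in CHE4, 1070.0 in JAG1, 1021 in JAG2 and 830 in B12. The same 6 lines in 2i/LIF lay at 67.8 to 91.8, and none was detected. In epiSCs the signal was 321 in BL3, 96.5 in BL4, 116 in BL7, 409 in BL2 and 107 in BL6, with BL4 not detected. Thus BL3 and BL2 epiSCs stood well above the other epiSC lines, and all epiSCs lay below all serum ESCs. In rESCs the signal was 212 in BL3, 306 in BL7, 87.6 in J2.3, 273 in BL2 and 225 in BL6, with J2.3 not detected. MEFs had 2856. From high to low the order was MEFs, serum ESCs, then epiSCs and rESCs with overlapping values, then 2i/LIF.

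Lyz2 (probe ILMN_1252076) followed the same order at a lower signal. It measured 320.4 in PAN1, 347 in PUM3, 405 in CHE4, 458 in JAG1, 499 in JAG2 and 366 in B12, and 55.6 to 70.7 without detection in 2i/LIF. Among epiSCs it was detected only in BL3 (164) and BL2 (191), the lines with high Lyz1, while BL4, BL7 and BL6 lay at 70.6 to 74.0. Among rESCs it was 118 in BL3, 155 in BL7, 165 in BL2 and 110.0 in BL6, with J2.3 at 59.4 and not detected. The MEF array gave 1414. The other Lyz2 probe, ILMN_2939681, was dim and was detected only in serum, in CHE4 (102), JAG1 (88.9) and JAG2 (95.6). Whether a Lyz1 probe also binds Lyz2 transcripts, or the reverse, was not tested.

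Ccl4 (probe ILMN_1223257) was close to background throughout but was detected in all serum ESC lines. Its signal there was 123.0 in PAN1, 127 in PUM3, 103 in CHE4, 114 in JAG1, 99.3 in JAG2 and 122 in B12. None of the 2i/LIF arrays (61.2 to 81.0) and none of the rESC arrays (68.7 to 108) was detected. Among epiSCs BL3 (116) and BL2 (102) were detected, the same lines as for Lyz2, and the other 3 lay at 71.5 to 85.4. MEFs gave 138, hardly more than serum ESCs.

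Ccl7 (probe ILMN_2771176) had another order, with the rESCs at the top of the pluripotent states. In serum ESCs it was 454 in PAN1, 293 in PUM3, 307 in CHE4, 262 in JAG1, 298 in JAG2 and 498.0 in B12. In 2i/LIF it lay at 57.1 to 90.1 and was not detected. All epiSCs were detected, at 197 in BL3, 108 in BL4, 178 in BL7, 225 in BL2 and 123 in BL6. In rESCs it reached 486 in BL3, 811 in BL7, 1236 in J2.3, 485 in BL2 and 694 in BL6, beside 1204 in MEFs. J2.3, which had the lowest lysozyme signal of the rESCs, therefore had the highest Ccl7, at the level of MEFs. Serum ESCs and rESCs overlapped, and both lay above epiSCs. The other Ccl7 probe, ILMN_2835117, gave 128 to 278 in serum, 134 to 352 in rESCs and 233 in MEFs, and was detected on 3 of 5 epiSC arrays at a range of 92.4 to 163.

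**Figure D1:**
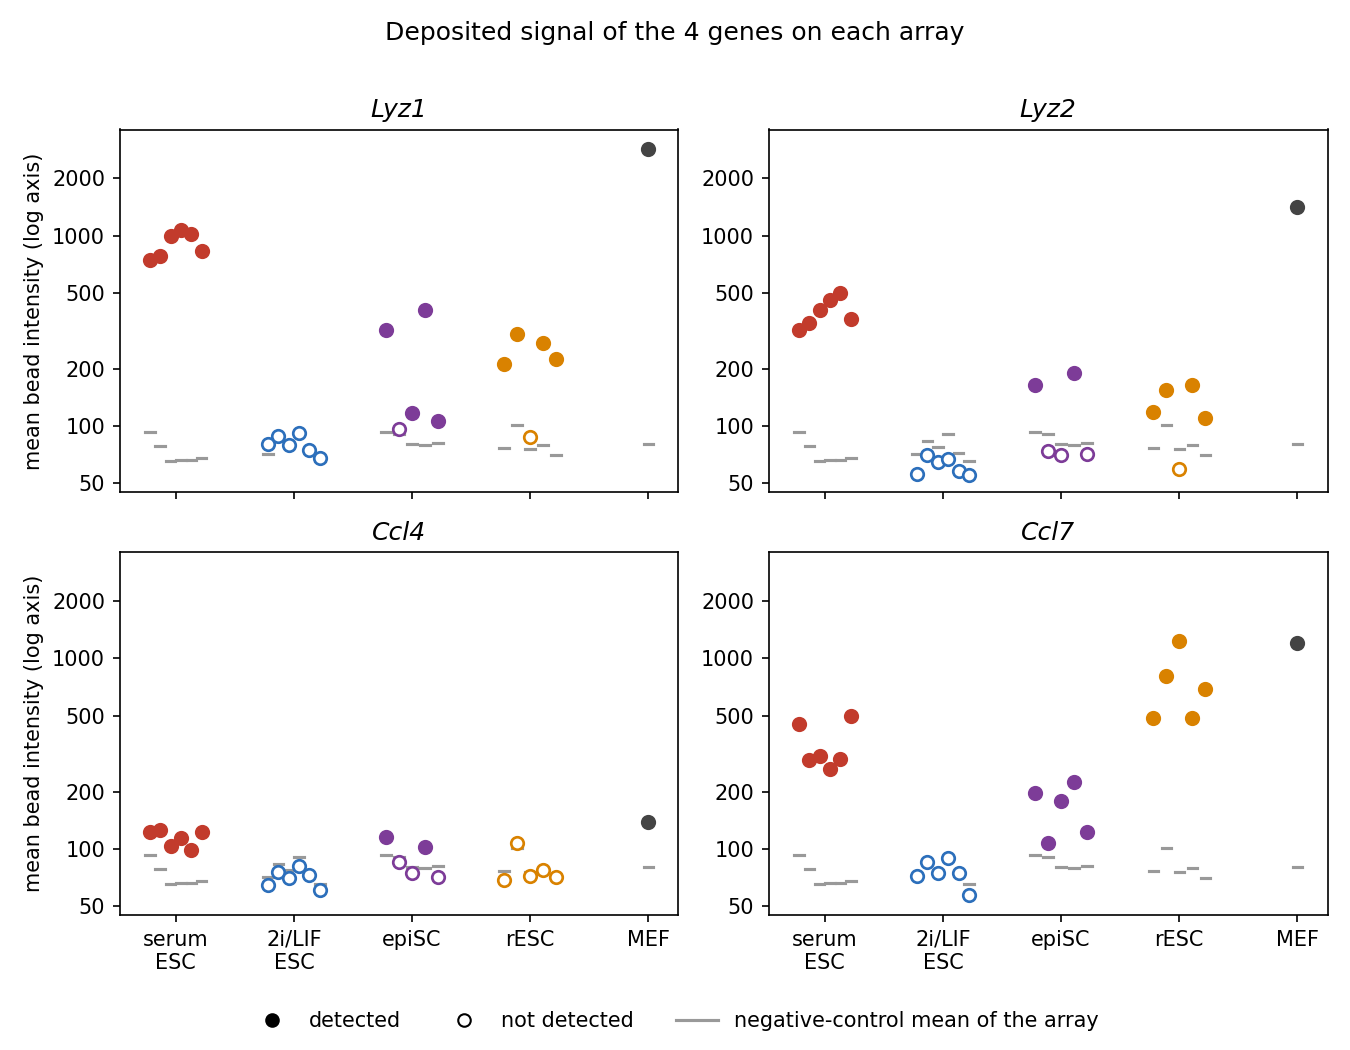
Deposited signal (mean bead intensity, log axis) of Lyz1, Lyz2, Ccl4 and Ccl7 on each of the 23 arrays, by state, with filled points for detected, open points for not detected and short grey lines for the mean of the negative controls of each array. Lyz1 in serum ESCs lay at 743 to 1070.0, and no gene was detected in 2i/LIF.

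How much of each signal a given amount of fibroblast RNA would carry was set out as a share of the MEF signal, each signal first being reduced by the mean of the negative controls of its array. There was 1 MEF array, so the denominator has no error, and the sources used here do not say that the arrayed MEFs were the feeders of these cultures. In serum ESCs the share was 30.0% ± 5.34 (SD, n = 6) for Lyz1, 24.4% ± 5.77 for Lyz2 and 24.8% ± 8.37 for Ccl7. The second Ccl7 probe, ILMN_2835117, with a MEF signal of 233, had 77.0% ± 34.4 in serum. The Ccl7 share thus depended on the probe. Ccl4 had 72.0% ± 16.9, on a MEF signal of 138 that was itself near background. The matrix genes had 24.6% ± 7.50 for Mgp, 10.8% ± 1.45 for Tnc and 8.62% ± 0.54 for Bgn (each SD, n = 6). Hence the lysozyme shares lay near that of Mgp and above those of Tnc and Bgn. The mean shares of the 7 genes, on the brightest probe of each, ran from 8.62% to 72.0%. Every Lyz1 share (23.4% to 36.2%) lay above every Tnc and Bgn share. Among fibroblast markers the mean share in serum ESCs was 1.08% for Col1a1, 3.35% for Lox and 8.98% for Thy1. It was 3.08% for Cd248, 17.1% for Tmem45a and 25.2% for Ecm1, genes whose levels ran close to those of Ccl7. Mgp thus lay near the top of the matrix and fibroblast genes given here.

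The shares fell into another order in the other states. In epiSCs they were 4.49% ± 5.23 (SD, n = 5) for Lyz1, 2.18% ± 4.37 for Lyz2, 7.21% ± 4.55 for Ccl7, 4.58% ± 3.42 for Mgp, 6.49% ± 2.53 for Tnc and 3.18% ± 1.34 for Bgn. Ccl4 in epiSCs had 8.39% ± 28.1. The shares of Lyz1, Lyz2 and Ccl4 in epiSCs are loosely determined: without the BL2 line that of Lyz1 was 2.65% and that of Lyz2 0.65%, and leaving out 1 line at a time gave 0.63% to 14.7% for Ccl4. In rESCs Lyz1 had 5.05% ± 2.78 (SD, n = 5) and Lyz2 3.07% ± 2.77, while Ccl7 had 58.9% ± 27.5 with a range of 36.1% to 103%. The second Ccl7 probe had 27.2% ± 21.0 in epiSCs and 121% ± 50.3 in rESCs. The matrix genes of rESCs had 4.97% ± 1.65 for Mgp, 26.7% ± 18.1 for Tnc and 12.5% ± 4.14 for Bgn, with J2.3 the highest for Tnc (57.9%) and Bgn (19.4%). In rESCs, then, the lysozymes lay beside Mgp and below Bgn, whereas Ccl7 lay above all matrix genes. These are bulk cultures, in which fewer cells of a type and less RNA per cell cannot be told apart.

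**Figure D2:**
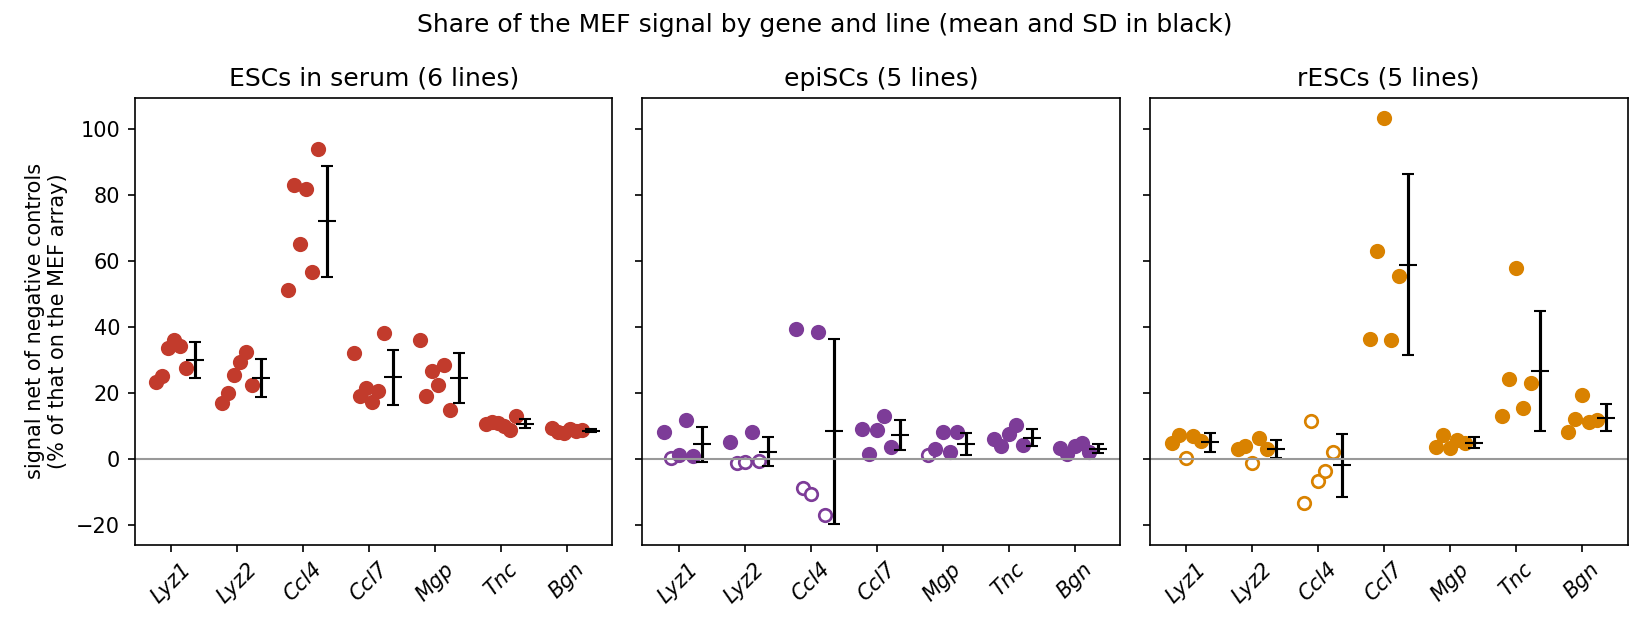
Share of the MEF signal (percent, net of negative controls) for the 4 genes and the matrix genes Mgp, Tnc and Bgn in serum ESCs, epiSCs and rESCs, with 1 point per line, open where not detected, and the mean and SD in black. The mean share of Ccl7, on its brighter probe, was 24.8% in serum and 58.9% in rESCs, and that of Lyz1 30.0% and 5.05%.

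The epiSCs and the 2i/LIF ESCs were set side by side next, with limma on background-corrected, quantile-normalized log2 levels and Benjamini-Hochberg adjusted p-values, called under 0.01. The 2i/LIF arrays had served to choose the genes for their absence there, so the members are described without a p-value. Of the 4 genes only Ccl7 passed the filter on dim probes, and it did so through the epiSCs alone. Over all genes 43.9% of 13946 tested probes were called and 22.1% were called higher. Ccl7 was at least 2.42-fold higher in the 5 epiSC arrays than in the 6 2i/LIF arrays, a bound because it was not detected in 2i/LIF. All epiSCs lay above all 2i/LIF arrays, as did 19.9% of tested probes. The fitted log2 difference, 1.92, was 0.92 without background correction and 0.74 in the authors' value table. Lyz1 was detected on 4 of 5 epiSC arrays, 1 too few for the filter, with a bound of at least 2.40-fold for the group mean, and Lyz2 had at least 1.10-fold. For comparison Bgn was at least 15.0-fold and Tnc at least 2.76-fold higher.

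Between epiSCs and rESCs, a comparison not used to choose the genes although it shares the rESC arrays with one that was, the lysozymes and Ccl7 differed in outcome. The lysozymes had been chosen in part for low values on these rESC arrays and Ccl7 had not, so the choice fixed that difference in part. Ccl7 was higher in rESCs, at a log2 level of 9.13 ± 0.86 (SD, n = 5) against 6.51 ± 0.83 (n = 5), a difference of 2.62 (SE 0.45, limma adjusted p = 9.74e-04). Of the 3 genes that passed the filter it was the only one called, beside 23.2% of 13418 tested probes called and 10.6% called higher. The lowest rESC line lay above the highest epiSC line, as for 11.4% of tested probes. The second Ccl7 probe gave a difference of 1.68 with adjusted p = 0.0114, just short of the threshold, and its groups overlapped. Lyz1 was at 6.82 ± 1.04 in rESCs against 6.47 ± 1.71 in epiSCs, a difference of 0.35 (SE 0.75, adjusted p = 0.757). The Lyz2 difference was 0.27 (SE 0.61, adjusted p = 0.767), with 3 of 5 epiSC and 1 of 5 rESC arrays not detected, and Ccl4 was too dim to test. Without the J2.3 rESC and BL6 epiSC arrays, a setting chosen after seeing the data, Ccl7 differed by 2.16 (adjusted p = 0.00163), Lyz1 by 0.58 (adjusted p = 0.565) and Lyz2 by 0.39 (adjusted p = 0.651). Among the matrix genes Bgn rose by 1.60 on the log2 scale (adjusted p = 0.00266), whereas Tnc with 1.42 (adjusted p = 0.0195) and Mgp with 0.01 (adjusted p = 0.980) were not called.

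In the 4 lines present in both states the lysozymes moved in either direction, and Ccl7 in one. In BL2 the Lyz1 level was 1.06 lower and Ccl7 1.03 higher in rESCs than in epiSCs, on the log2 scale. BL3 gave a Lyz1 change of -1.07 and a Ccl7 change of 1.47. In BL6 both were higher in rESCs, Lyz1 by 1.68 and Ccl7 by 3.06, and in BL7 likewise by 1.81 and 2.36. Lyz2 changed by -0.59 in BL2 and -0.89 in BL3. In BL6 and BL7 it was not detected in epiSCs and was detected in rESCs, so that its change there has no exact size. Thus these 4 lines lay closer together in lysozyme as rESCs than as epiSCs, where BL2 and BL3 were high. Bgn was higher in rESCs in every line, by 0.77 in BL2, 0.87 in BL3, 1.88 in BL6 and 1.11 in BL7. The level of Ccl7 minus that of Lyz1, a measure chosen after seeing the data and given without a test, was 2.32 ± 1.85 (SD, n = 5) in rESCs and 0.02 ± 1.04 (n = 5) in epiSCs. Without the J2.3 rESC and BL6 epiSC arrays it was 1.51 ± 0.42 (n = 4) and -0.11 ± 1.16 (n = 4). J2.3, where Lyz1 was not detected, held the highest value, 5.57.

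**Figure D3:**
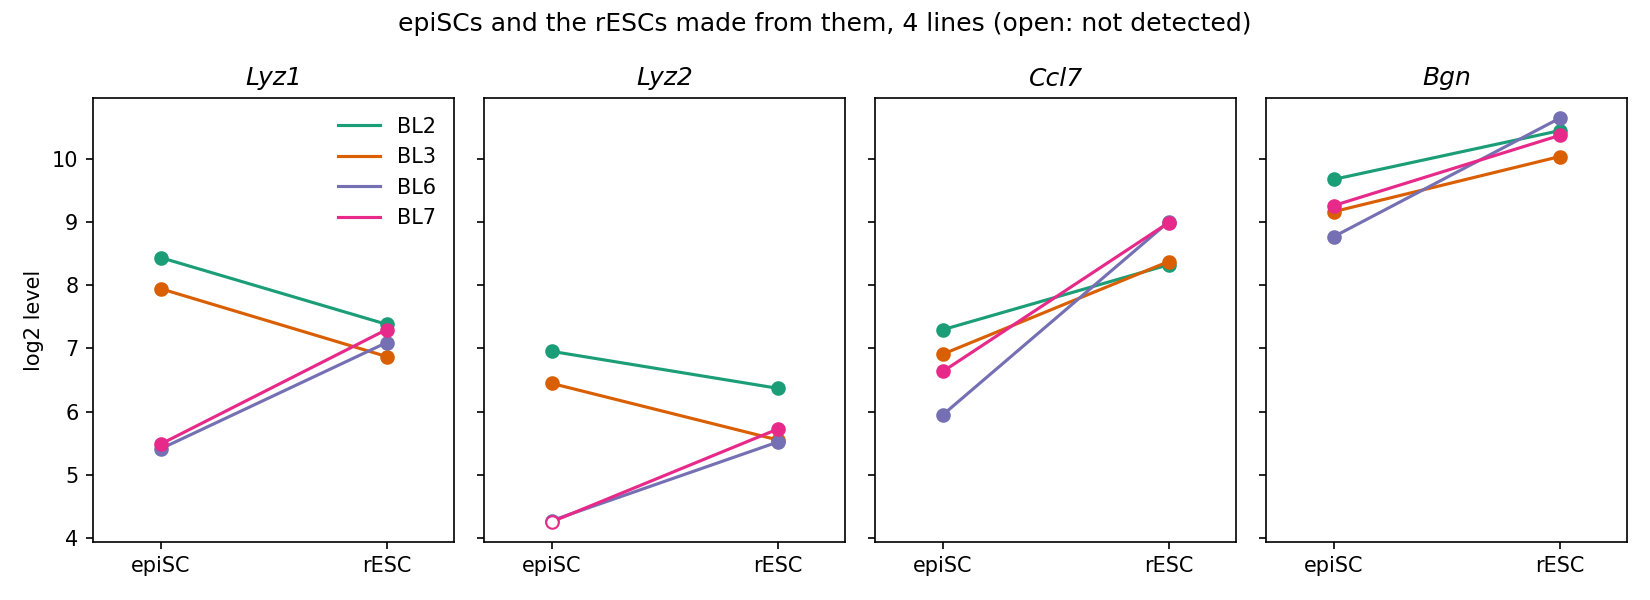
Log2 level of Lyz1, Lyz2, Ccl7 and Bgn in the epiSCs and rESCs of the 4 lines with both states, each line joined (open points not detected). Ccl7 and Bgn were higher in the rESCs of all 4 lines, while Lyz1 and Lyz2 were lower in the rESCs of BL2 and BL3 and higher in those of BL6 and BL7.

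Blimp1 genotype, the contrast the study was built for, was compared within each state. All 4 genes passed the filter on dim probes in serum and in epiSCs, 3 did in rESCs, where Ccl4 was too dim, and none did in 2i/LIF. None of those tested was called between null and heterozygous lines. Background rates were 0% of 13527 tested probes in serum, 0% of 13380 in 2i/LIF, 0.404% of 14355 in epiSCs and 0% of 13961 in rESCs by limma, with 608, 733, 2309 and 673 probes at an unadjusted p under 0.05. In serum the log2 differences, null minus heterozygous, were 0.17 for Lyz1 (adjusted p = 0.962), 0.32 for Lyz2 (0.925), 0.05 for Ccl4 (0.981) and -0.05 for Ccl7 (0.988), each with 3 lines a genotype. In epiSCs the Lyz1 difference was 0.87 with an SE of 1.07 (adjusted p = 0.735), and each genotype held 1 of the high lines, BL3 and BL2. In rESCs the differences were -0.66 (SE 0.74) for Lyz1 and 0.58 (SE 0.60) for Ccl7, and neither was called. With 2 or 3 lines a genotype these errors leave room for changes of more than 1 log2 unit in epiSCs and rESCs. No interaction of genotype with state was called for any probe, of 13274 tested over serum and 2i/LIF and 13418 over epiSCs and rESCs (limma, with 458 and 266 probes at an unadjusted p under 0.05).

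The contrasts that chose the genes are described here for scale. From 2i/LIF to serum, Lyz1 was at least 25.4-fold, Lyz2 at least 10.1-fold, Ccl7 at least 8.55-fold and Ccl4 at least 1.68-fold higher, beside at least 42.2-fold for Bgn, 8.03-fold for Mgp and 4.58-fold for Tnc. In that contrast 31.1% of probes were called and 15.4% were called higher. The 2i/LIF arrays gave no detected value. Each bound therefore sets the serum mean against a floor on the normalized log2 scale, averaged over the 2i/LIF arrays. On each array the floor was the higher of the lowest detected level and the probe's own level. Between serum ESCs and rESCs 0.193% of 13495 probes were called and 0.141% were called higher in serum (26 probes, and 3 to 494 when 1 line was left out, with 494 without the B12 ESCs), and the values of the 4 genes there follow from the signals above.

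Levels were then correlated across the 22 pluripotent arrays. The genes had been chosen on these arrays, the lysozymes and Ccl4 for lower rESC values and Ccl7 not, so that a split between them restates the choice in part. Pearson's r of the log2 levels was 0.99 for Lyz1 with Lyz2, 0.91 for Lyz1 with Ccl4 and 0.94 for Lyz2 with Ccl4, and 0.99, 0.92 and 0.93 over the 16 arrays without 2i/LIF. Ccl7 correlated with Lyz1 at 0.66 and with Ccl4 at 0.45, which dropped to 0.27 and 0.14 without 2i/LIF. With Bgn and Tnc, however, Ccl7 had 0.94 and 0.96, and 0.96 and 0.89 without 2i/LIF. Lyz1 with Bgn had 0.72 and 0.38, and with Mgp 0.81 and 0.65. These arrays share states and lines, and the undetected 2i/LIF values form 1 cluster, so the coefficients describe the arrays only.

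**Figure D4:**
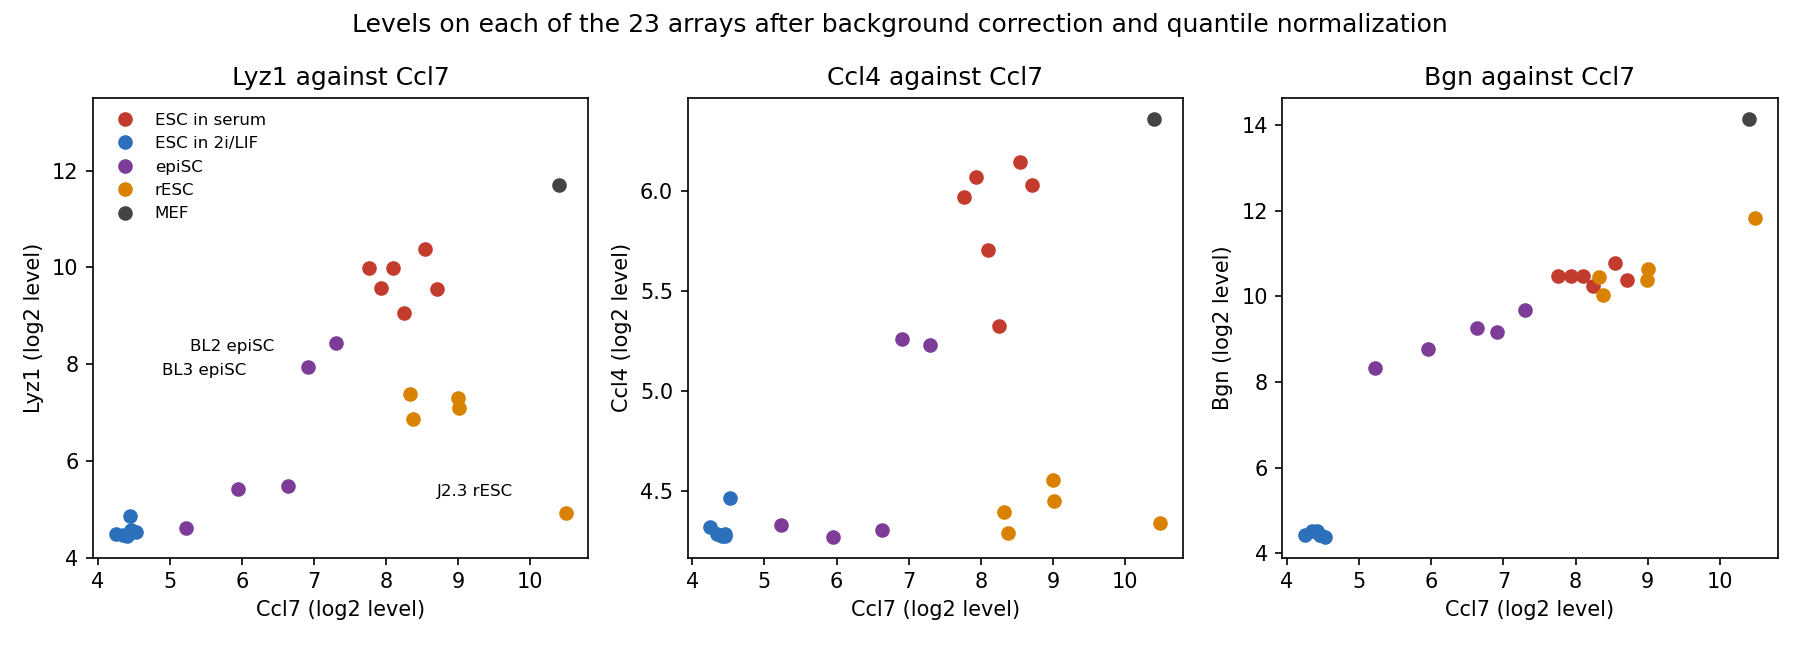
Log2 levels of Lyz1, Ccl4 and Bgn against Ccl7 on each of the 23 arrays, coloured by state. Bgn followed Ccl7 across the states (r = 0.94 over the 22 pluripotent arrays), whereas Lyz1 and Ccl4 of the rESCs lay below those of serum ESCs at like Ccl7.

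The genes most like each member in level, out of 9174 genes detected on 5 or more of the pluripotent arrays, were ranked by the same coefficient. Here a ranked gene with several probes stood by the probe with the highest r. Ccl4 was closest to Ccl3 (0.95), the chemokine MIP-1 alpha, then to Lyz2 (0.94), Clec4n (0.93), which encodes the fungal receptor Dectin-2, Ccl9 (0.91) and Lyz1 (0.91). Lyz2 was closest to Lyz1, Ccl4 and Ccl3 (0.91) and then to Timm50 (0.89) and Dpm3 (0.89), genes of mitochondrial import and of sugar transfer in the endoplasmic reticulum. Lyz1 was closest to Lyz2 and Ccl4 and then to Eif4a2 (0.90), a translation factor gene, Dpm3 (0.89) and Lag3 (0.89), an immune checkpoint gene. Eif4a2 and Dpm3 were detected in 2i/LIF as well, on 6 of 6 arrays. Ccl7 was closest to Lox (0.98), which encodes the collagen cross-linking enzyme lysyl oxidase, then to Tnc (0.97), Ecm1 (0.97), Cd248 (0.96) and Tmem45a (0.96). Lox and Tnc encode secreted matrix proteins or enzymes, and Cd248 a surface protein of fibroblasts and pericytes.

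Both chemokine genes lie in the CC chemokine cluster of chromosome 11 (RefSeq, GRCm38.p6), at opposite sides of it. Among the 12 named Ccl and Cxcl genes of that chromosome in this annotation, Ccl2, Ccl7 and Ccl11 are the 2nd to 4th in order, and Ccl9, Ccl3 and Ccl4 the 9th, 11th and 12th. Likeness did not simply follow that order. Ccl2, which encodes the monocyte chemokine MCP-1, had r = 0.85 with Ccl7 and 0.15 with Ccl4, and Ccl3 had 0.55 with Ccl7 and 0.95 with Ccl4. Ccl9 had 0.45 with Ccl7 and 0.91 with Ccl4. Ccl11, next to Ccl7, had only 0.43 with it and -0.26 with Ccl4, and Cxcl16, the first in order, had 0.70 and 0.65. Ccl2 was detected on 4 of 6 serum arrays (range 75.1 to 155) and 4 of 5 rESC arrays (99.2 to 190.0). Ccl3 was detected in all serum lines (109.9 to 129), in 1 epiSC line (BL2, 98.7) and in no rESC line. Ccl9 was detected in all serum lines (105 to 141), in BL3 (146) and BL2 (155) epiSCs and in no rESC line, which is the distribution of Ccl4.

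Of the other chemokine genes, 5 passed the filter between epiSCs and 2i/LIF ESCs and 3 were called higher, none lower, beside 22.1% of all tested probes called higher. Their median log2 change was 0.82, against -0.04 over all tested probes. The genes called higher are given next. These were Cxcl12, the ligand of Cxcr4, Cxcl1, a neutrophil attractant, and Cx3cl1 (log2 change 0.82). Cxcl12 and Cxcl1 were detected in all epiSC lines and on 0 of 6 2i/LIF arrays. They passed the filter through the epiSCs alone, so their change has no exact size. The receptor gene Cxcr4 was itself higher by 1.05 (adjusted p = 6.39e-04). Between rESCs and epiSCs 6 chemokine genes were tested (median 0.44, against 0.00 over all tested probes). Of these 2 were called, both lower in rESCs, beside 23.2% of all tested probes called. They were Cxcl12, by -1.62 (limma adjusted p = 0.00708), and Cx3cl1, by -0.72 (adjusted p = 0.00421), and Cxcr4 fell by 1.28. Ccl2, with a difference of 1.31 (adjusted p = 0.0119), and Cxcl1, with 1.29 (adjusted p = 0.0300), were not called. Cxcl1 had serum signals of 370.5 to 660.3 and rESC signals of 279.8 to 744, beside 429 in MEFs and no detection in 2i/LIF, a profile close to that of Ccl7 (r = 0.95). Of 22 receptor genes 5 had a named probe.

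Macrophage genes were then read on the same arrays, from a list of 30 of which 14 had a named probe. The defining genes C1qb, C1qc, Trem2 and Tyrobp were detected in MEFs, at 204, 221, 142 and 104, and on 0 of 22 pluripotent arrays. The complement genes C1qb and C1qc and the myeloid genes Trem2 and Tyrobp are marks of tissue macrophages. In serum ESCs their mean shares of the MEF signal were 5.11% for C1qb, 3.57% for C1qc, 13.0% for Trem2 and 24.3% for Tyrobp. The MEF signals of Trem2 and Tyrobp were themselves near background, so for these genes a lack of detection says little. Of the other defining genes, Csf1r, the receptor of the macrophage growth factor, was not detected in MEFs or rESCs but on 1 serum, 3 2i/LIF and 2 epiSC arrays, and Fcgr3, an antibody receptor gene, was detected in MEFs (156) and on 4 serum, 2 2i/LIF, 2 epiSC and 0 rESC arrays. Between 2 and 6 of the 14 were detected per serum array, 1 to 4 in 2i/LIF, 2 to 6 in epiSCs, 2 to 4 in rESCs and 11 in MEFs. Their summed signal, net of negative controls, was 1393 to 2714 in serum, 2798 to 5887 in 2i/LIF, 121 to 404 in epiSCs, 1182 to 1981 in rESCs and 1002 in MEFs. In ESCs and rESCs most of it came from Laptm5, a gene of lysosomal membranes that lay at 2831 to 5878 in 2i/LIF, where no member was detected, and at 438 in MEFs. Without Laptm5 and Coro1a, 2 genes left out after seeing the data, the sum was 116 to 183 in serum, 32.1 to 89.7 in 2i/LIF, 17.1 to 133 in epiSCs, 47.7 to 101 in rESCs and 602 in MEFs. Among epiSCs the highest of these reduced sums were those of BL2 (133) and BL3 (96.5), the lines with high Lyz1, Lyz2 and Ccl4. Over all 14 genes the order was another, with BL6 at 404, BL2 at 268, BL7 at 241, BL3 at 221 and BL4 at 121. Myeloid genes of the list that were detected in serum included Clec4d (4 of 6 lines), a lectin receptor gene, and Cd14 (4 of 6), the endotoxin receptor gene. The related gene Clec4n (5 of 6) was not on the list. It was named for its likeness to Ccl4 on these arrays, so its pattern over the states follows from that choice. In epiSCs Cd14 was detected in BL3 (114) and BL2 (101), Clec4n in BL3 (115) and Clec4d in BL2 (108). The part of macrophages in the lysozyme and Ccl4 signal was not tested.

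**Figure D5:**
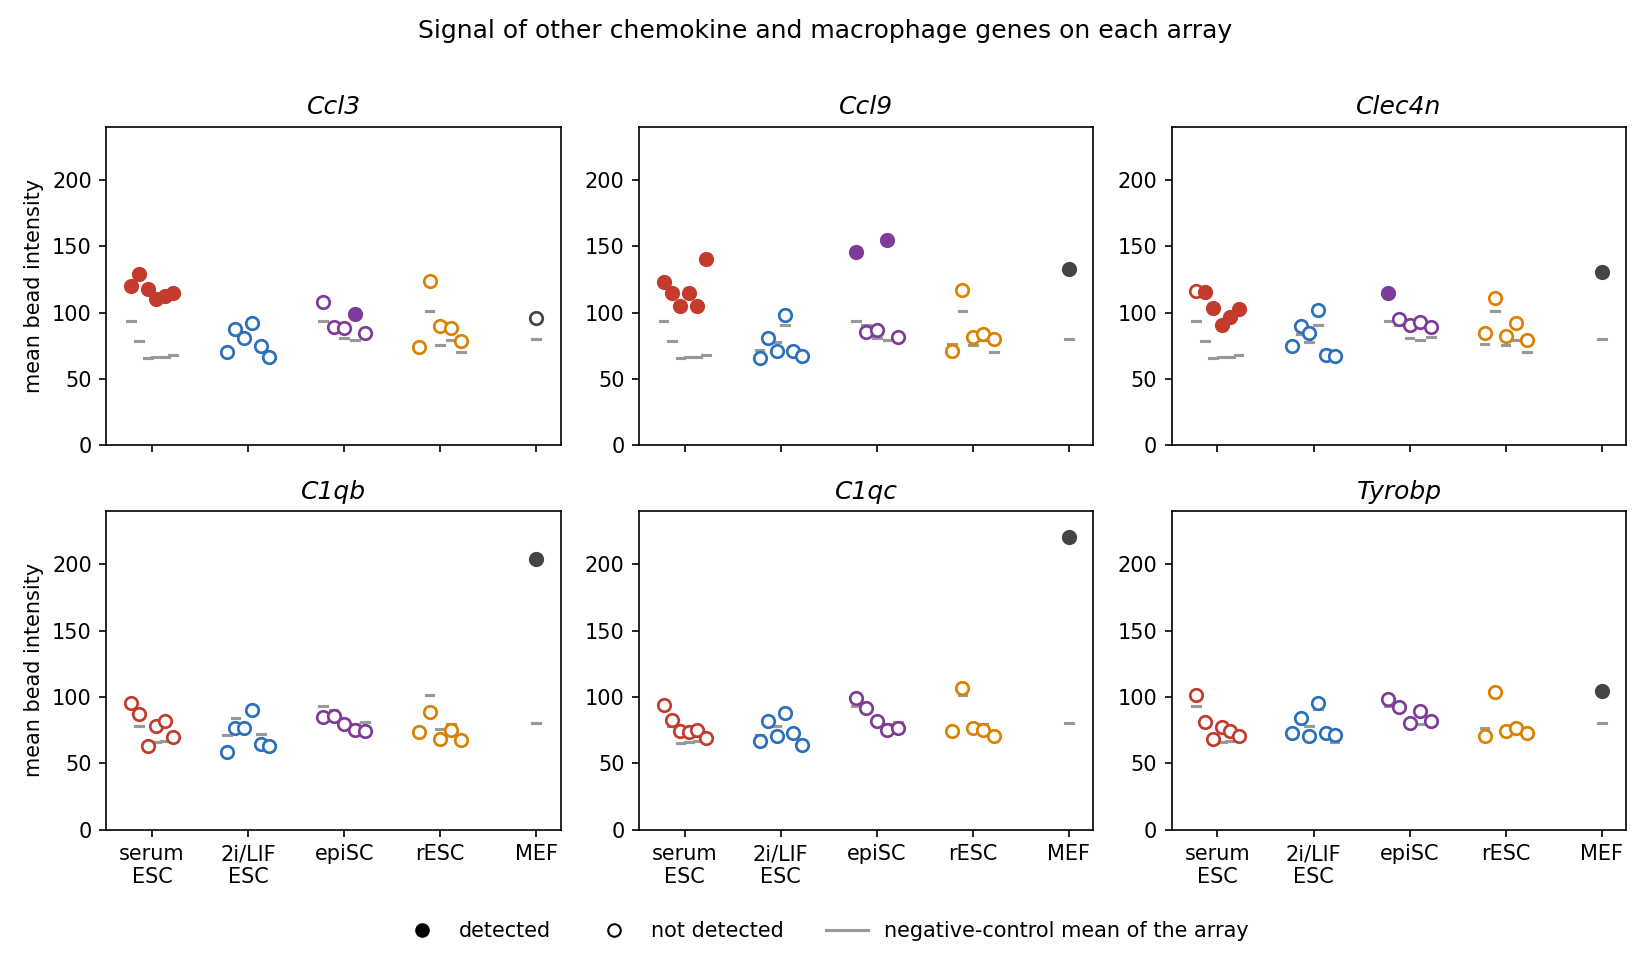
Signal (mean bead intensity, linear axis) of Ccl3, Ccl9, Clec4n, C1qb, C1qc and Tyrobp on each array, filled where detected, with the mean of the negative controls as grey lines. Ccl3 and Ccl9 were detected in all 6 serum lines, whereas C1qb (204), C1qc (221) and Tyrobp (104) were detected in MEFs alone.

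Genes of other cell types were counted in the same way. Of 28 fibroblast genes 27 had a named probe, and 18 to 19 were detected per serum array, 6 to 11 in 2i/LIF, 15 to 21 in epiSCs, 16 to 21 in rESCs and 27 in MEFs. Their summed net signal was 5794 to 7946 in serum, 636 to 1227 in 2i/LIF, 4166 to 6247 in epiSCs, 5801 to 12745 in rESCs and 83714 in MEFs. Between epiSCs and 2i/LIF 13 of 16 tested fibroblast genes were called higher and 1 lower (median log2 change 1.81), beside 43.9% of all tested probes called and 22.1% called higher. Fibroblast genes could pass the filter through the epiSCs alone, so this count and median follow in part from the filter. Lox was detected on 5 of 5 epiSC arrays and 0 of 6 2i/LIF arrays. Between rESCs and epiSCs 4 of 19 were called higher, Lox among them with 1.95, and 1 lower (median 0.36), beside 23.2% of all tested probes called and 10.6% called higher. Of the inflammatory genes 4 of 7 tested were called higher in rESCs than in epiSCs and none lower (median 0.96), beside the same 10.6% of all tested probes called higher. They were Icam1 (limma adjusted p = 0.00115), an adhesion receptor gene, Nfkbia (log2 change 1.16), the inhibitor of NF-kappa-B, Zfp36 (1.15) and Relb (0.70). Granulocyte genes (6 named of 13) summed to 45.8 to 123 in serum and to 539.5 in the J2.3 rESCs, the array with the highest Ccl7. Endothelial genes (4 of 4 tested, such as Pecam1) were called higher in rESCs than in epiSCs, beside the same 10.6% of all tested probes called higher. Of 8 named, 4 to 5 were detected per rESC array and 0 to 4 per epiSC array. Lymphoid genes (3 of 3 tested, Cd3d among them) were called lower in epiSCs than in 2i/LIF, beside 43.9% of all tested probes called in either direction. Of 4 named, 3 were detected per 2i/LIF array and 1 per epiSC array. Both sets could thus pass the filter through the brighter state. How far fibroblasts, granulocytes or an inflammatory response contributed to the Ccl7 signal was not tested.

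Within the 6 serum lines the members were set against each other and against the matrix genes, in 18 pairs with exact permutation tests over all 720 pairings. No pair passed an adjusted p under 0.05. Lyz1 and Lyz2 had r = 0.93 (exact two-sided p = 0.0111, adjusted 0.1) and Spearman's rho = 0.94 (exact p = 0.0167, adjusted 0.15), and r = 0.89 without the 2 lines farthest from the median. Ccl4 and Mgp had r = -0.97 (exact p = 0.00417, adjusted 0.075) and rho = -1 (exact p = 0.00278, adjusted 0.05) on signals net of negative controls, but r = -0.23 (exact p = 0.631, adjusted 0.873) and rho = -0.03 on normalized log2 levels, where leaving out 2 lines turned r to 0.62. Lyz1 and Lyz2 kept r = 0.97 on that scale (exact p = 0.00417, adjusted 0.075). With 6 lines these coefficients are loosely determined.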

How the data were processed

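RNA of 22 pluripotent cultures and 1 MEF culture was measured on Illumina bead arrays (Mouse WG-6, v2.0), and per the study's methods the authors applied a variance-stabilizing transform and quantile normalization (lumi) and limma. The deposited signal table holds mean bead intensity without normalization and a detection p-value per probe as deposited. Its 2 per-sample columns that match no sample used here were left out. The deposited value table is on a log2 scale, with column medians of 7.10, and served as an alternative. Intensities were corrected and normalized with neqc (limma 3.58.1, R 4.3.3, offset 16), for each comparison over its own arrays, with negative controls inferred from the detection p-values. A probe had to be detected (p under 0.01) on a number of arrays at least that of the smaller group. Those probes were fitted with lmFit and eBayes, and a call needed an adjusted p (Benjamini-Hochberg) under 0.01. Where a group had no detected value, "at least" folds set the brighter mean against the higher of the lowest detected signal and the dim probe's own, averaged per array on the normalized log2 scale. Shares of MEF signal used intensities less the mean of the negative controls. The script was tested on simulated data. Other steps used Python 3.11.15, scipy 1.17.1 and Biopython 1.88.

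Genes were named from the platform annotation (17604 probes with 1 symbol). Named beside the members were the matrix genes, members of gene lists, and the 5 genes nearest to each member in r. The brightest probe stood for a gene with several, except for the genes ranked by likeness, where the probe with the highest r did. The members, lists and tests were chosen with earlier results of these data known. Replicates are separate cell lines with 1 array per state, and no array duplicated another (highest r 0.994). Lines pair serum with 2i/LIF arrays, and BL2, BL3, BL6 and BL7 pair epiSCs with rESCs, by the labels. Deviations from the group means correlated at 0.12 to 0.44 in the serum and 2i/LIF pairs, and at 0.50 (BL3), 0.24 (BL7), 0.55 (BL2) and -0.15 (BL6) in the others. No source used here gives slides or scan times. The number of arrays limits the precision.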

Additional observations from a re-analysis of the deposited data

Results flagged for a closer look

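Of 36 groups of a gene in a state, 1 held an array far from the others, where chance gives about 1 in 20. It was Ccl4 in rESCs, where BL7 had a signal of 107.813 against 68.7 to 77.4 on the other 4 arrays (gap over range 0.777, critical value 0.710). The value was not detected (detection p 0.197), and the negative controls of that array averaged 101, the highest of the series.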

How the results depend on the processing

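Of 392 alternative values over 46 results, 356 were classed as unchanged. A log2 change or r had to keep its direction and side of the threshold, and a share had to move less than the SD between lines. For a count of called probes or correlated pairs it was enough to stay within a fixed fold of the main count. A count of called members had to stay equal. Ccl7 stayed called between rESCs and epiSCs under every alternative run, with log2 changes of 2.27 to 2.84 when 1 line was left out, and its fitted difference between epiSCs and 2i/LIF was then 1.69 to 2.24. Lyz1 between rESCs and epiSCs ranged from -0.11 (without the BL4 epiSCs, adjusted p = 0.931) to 0.86 (without the BL2 epiSCs), and its r with Bgn over serum lines went from -0.31 to 0.91 on the log2 scale. The cause was not tested. With cell line as a replicate block, 2532 probes were called between rESCs and epiSCs of the 4 paired lines (2735 without the block) and 4446 between serum and 2i/LIF (4125 without), and Ccl7 kept its call (log2 change 1.97, adjusted p = 0.00463). The block changed the call of neither lysozyme gene. Genotype counts were 1 in serum, 3 in 2i/LIF and 7 in epiSCs with all 22 arrays fitted together, and in epiSCs 188 with an intensity trend, 0 without the filter and 0 in the authors' value table, against 58. Leaving out 1 line gave 0 to 1 in 2i/LIF and 0 in epiSCs. For serum ESCs against rESCs 26 probes became 412 with all arrays, 5 without the filter, 9 with genotype as a covariate and 3 to 494 without 1 line (494 without B12 ESCs, 92 without J2.3 rESCs). The Bgn share in serum became 7.80% on normalized levels, and the Ccl4 share in rESCs 12.6% net of 2i/LIF and 7.93% on normalized levels. Ccl4 lay so near background that its shares carry little weight.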

Other observations

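The J2.3 rESC array, which had the highest Ccl7 and no detected lysozyme, also had Saa3, an acute-phase gene, at 1329, S100a8, a granulocyte gene, at 364, and Ccl11, the eosinophil chemokine eotaxin, at 322. Cxcl16, a membrane-bound chemokine, was detected in serum ESCs at 110 to 352 and in no epiSC line.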
